A study of Mus musculus with 4 samples.

Results

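Mature dendritic cells (DCs) of MC38 tumours were picked from a single-cell RNA series by their counts, and they made up 118 of the 39906 cells that passed the cell filters. A cell was a member when it held at least 2 unique molecular identifiers (UMIs, each taken as 1 captured RNA molecule) of Ccr7, at least 2 of Fscn1 and at least 3 of H2-Ab1. It could hold at most 1 UMI of the Cd3 genes and at most 1 of Cd79a, and its C1qa, C1qb and C1qc UMIs together had to stay under 10 per 10000. The rule therefore used measured values of these cells, and the differences between the members and other cells are given as descriptions, with no test. The series has 4 libraries of CD45+ cells sorted from subcutaneous tumours of the MC38 line, a mouse colon carcinoma line, in 8-week-old mice. There were 2 libraries of Trim25 cKO mice (a conditional deletion) and 2 of WT mice. All mice carried the tumour, and no other treatment is given. The series title places the loss of Trim25, a ubiquitin ligase of the tripartite motif family, in T cells, but the driver of the deletion is not named, and nothing says that DCs lost the gene. Nothing says that the libraries came from separate mice either, so p-values measure the spread between these libraries, which may be technical.

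The members numbered 10 in cKO library 1 and 38 in cKO library 2, against 26 in WT library 1 and 44 in WT library 2. Their summed UMIs were 173253 and 507224 in the cKO libraries, against 390134 and 637363 in the WT libraries. Whole libraries held 101176581 and 115111783 UMIs (cKO) and 96751399 and 127449324 UMIs (WT). Levels below are counts per 1000000 UMIs (CPM) of the pooled members of a library, listed as cKO libraries 1 and 2 and then WT libraries 1 and 2. Because cKO library 1 rests on 10 cells, 1 UMI there is worth 5.77 CPM. The member with the most UMIs of a gene can set that library's level, and such cases are named.

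DCs take up antigen in tissues, and on maturation they stop taking it up, show costimulatory ligands and move through lymphatics to the draining lymph node. Ccr7 is the receptor that guides them there, along gradients of Ccl19 and Ccl21. Fscn1 bundles actin into the long dendrites of the mature cell. In tumours such cells have been described as carrying both stimulatory and regulatory genes. Conventional DCs that have not matured fall into cDC1, which need Irf8 and Batf3 and cross-present antigen, and cDC2. Cells with at least 2 UMIs of Xcr1 and Clec9a together (724 cells, called cDC1-like here) and cells with at least 2 UMIs of Cd209a and at most 1 of those genes (720 cells, cDC2-like) served for comparison. The cDC1-like cells were not pure, because 234 of them held at least 2 UMIs of Siglech, a marker of plasmacytoid DCs, as did 22 of the cDC2-like cells. No limit kept monocytes out of either group. A list of 5 monocyte genes, mostly Plac8, summed to 5427 CPM in cDC1-like and 5600 CPM in cDC2-like cells. In all kept cells that were not members it summed to 6080 CPM. Transcript counts do not measure movement, so the members are called mature DCs below.

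The name was checked first against markers. All 10 genes on a list of mature DC markers were at least 2-fold higher in mean CPM in mature DCs than in cDC1-like and cDC2-like cells, with no overlap between libraries. Of 8589 genes that reached 10 CPM in one of these cell groups, 9.29% were higher in mature DCs than in both others by that measure and 14% were lower. Those shares stand beside the counts below, which come from the contrast that chose the cells. Ccr7 (chr11:99144196-99155077, minus strand, GRCm38) had 1022, 1015, 720 and 893 CPM in mature DCs. In cDC1-like cells its mean was 6.63 CPM, and in cDC2-like cells it was 1.0 CPM. Fscn1 (chr5:142960343-142973185, plus strand) had 1322, 2110, 1625 and 1773 CPM in mature DCs, against means of 6.69 CPM in cDC1-like and 2.86 CPM in cDC2-like cells. Both genes belong to the rule, so their levels only describe what was gated.

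The other markers were not in the rule. Ccl22 (chr8:94745590-94751699, plus strand), which draws Ccr4-bearing T cells including regulatory T cells, had 352, 288, 584 and 239 CPM in mature DCs. Its means were 5.47 CPM in cDC1-like and 5.23 CPM in cDC2-like cells, so every library of mature DCs stood above both. Cacnb3 (chr15:98630840-98644529, plus strand), a subunit of voltage-gated calcium channels, had 456, 418, 443 and 348 CPM in mature DCs, with means of 2.48 CPM in cDC1-like and 0.274 CPM in cDC2-like cells. The remaining markers on the list, Il4i1, Socs2, Cd200, Relb, Tmem123 and Marcksl1, followed the same order. All 7 cDC1 markers were lower than in cDC1-like cells, which the gate of those cells favours for Xcr1 and Clec9a. Only 2 of them, Naaa and Wdfy4, were also lower than in cDC2-like cells, and 1 was higher. The median log2 ratio of the list over cDC2-like cells was 0.28. Naaa had a mean of 23.6 ± 13.5 CPM (SD, n = 4 libraries) in mature DCs, against 652 CPM in cDC1-like cells, and Wdfy4, needed for cross-presentation, had 29.98 ± 8.59 CPM against 621 CPM. All 5 cDC2 markers that could be counted were lower than in both other groups, which for Cd209a is fixed by the gate of the cDC2-like cells.

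A ranking by the ratio of mean CPM in mature DCs to that in all other kept cells, among genes with at least 100 CPM, named 15 leading genes. Tbc1d4 (chr14:101442360-101609191, minus strand), a Rab GTPase-activating protein known from insulin-stimulated glucose transport in muscle and fat, led it. It had 3584, 2959, 3253 and 2652 CPM in mature DCs, against means of 85.6 CPM in cDC1-like and 55.9 CPM in cDC2-like cells, and 117 of the 118 members held at least 1 UMI of it. Il12b, Mreg, Strip2, Syn3, Slc22a23, Socs2, Tmtc2, Ly75, Adam23 and Mmp25 stood with it, beside the 4 markers. Socs2, a feedback inhibitor of cytokine receptor signalling, had 600, 621, 754 and 940 CPM. Ly75, the endocytic receptor DEC-205, had 1287, 897, 779 and 637 CPM, against a mean of 49.5 CPM in cDC1-like cells. Both cKO libraries lay below both WT libraries for Socs2, as for 14.5% of all genes compared, and above them for Ly75, Ccr7, Syn3 and Tmtc2, as for 15.8%. These 15 genes were chosen for their ratio, so its size is no finding.

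**Figure D1:**
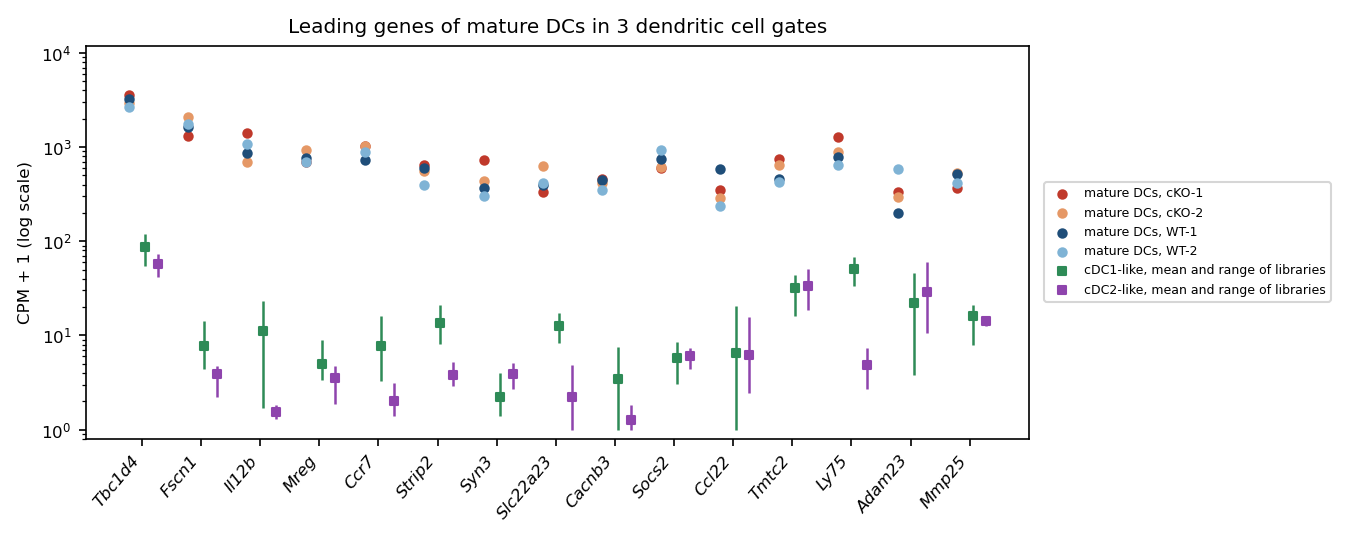
Level of the 15 leading genes (CPM + 1, log axis) in mature DCs of each library, cKO before WT, beside cDC1-like and cDC2-like cells (squares are means, lines the range of the 4 libraries). Tbc1d4 lies between 2652 and 3584 CPM in mature DCs, while its means in the other cells are 85.6 and 55.9 CPM.

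The edge of the rule ran through a larger population. Of the cells with at least 2 UMIs of both Ccr7 and Fscn1 there were 348, and 207 of them missed the limit on H2-Ab1, 20 that on the C1q genes, 25 that on the Cd3 genes and 2 that on Cd79a. Some missed more than 1. Just inside the limits on Ccr7 and Fscn1 lay 12 members with exactly 2 UMIs of either gene, and they had 3123 CPM of Tbc1d4, 2752 CPM of Tmem123 and 95.6 CPM of Ccl22. Just outside lay 26 cells that held at least 1 UMI of both but fell short of 2 for at least one of them (8 of these cells for both), with 813, 1160 and 229 CPM of these genes. Cells with 1 gene and not the other looked different. The 44 cells with at least 4 UMIs of Fscn1 and none of Ccr7 held a median of 57466 UMIs and had 1.62 CPM of Ccl22 and 14.6 CPM of Cacnb3. The 36 cells with at least 4 UMIs of Ccr7 and none of Fscn1 had 161 CPM of Ccl22 and 30.6 CPM of Cacnb3.

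Without the limit on H2-Ab1 the rule held 306 cells (30 and 100 in cKO libraries, 70 and 106 in WT libraries), and 188 of these were under it. H2-Ab1 (chr17:34257689-34269419, plus strand) encodes the beta chain of the class II molecule I-A. Its UMIs per cell spread without a gap at the limit, with 85 cells at 0, 58 at 1, 45 at 2, 20 at 3, 19 from 4 to 9, 36 from 10 to 29 and 43 at 30 or more. The members had medians of 13222 UMIs per cell and 2.14% mitochondrial UMIs, and the 188 cells under the limit had 10704 UMIs and 1.79%. Most maturation genes examined were at like levels in both. Tbc1d4 was at 2975 CPM in the pooled members and 3019 CPM in the cells under the limit, Tmem123 at 4471 and 4846 CPM, Ccl22 at 344 and 433 CPM, Relb at 617 and 643 CPM, and Socs2 at 768 and 807 CPM. Cacnb3 was lower in the members, at 402 CPM against 592 CPM under the limit, and Il4i1 was higher, at 271 CPM against 167 CPM. The class I genes H2-K1 (5295 and 5883 CPM) and B2m (17932 and 19419 CPM) were also alike in both.

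The class II genes followed H2-Ab1 across that edge. H2-Aa had 4289 CPM in the pooled members and 825 CPM under the limit, H2-Eb1 had 3980 and 616 CPM, and Cd74, the invariant chain that escorts class II molecules, had 4215 and 947 CPM. Ciita (chr16:10480059-10528418, plus strand), the coactivator that switches on the class II genes, had 105 CPM in the members and 2.01 CPM under the limit, and H2-DMb2, a chain of the peptide-loading molecule, had 126 and 1.00 CPM. Over the 306 cells each gene was taken as its share of the cell's UMIs. H2-Ab1 then rank-correlated with Ciita (Spearman rho 0.57), H2-Aa (0.67), H2-Eb1 (0.66) and Cd74 (0.68), and not with Ccl22 (-0.05) or Fscn1 (-0.13). Cells of a library share its depth, and no p is given. Other genes stood higher under the limit. Ccl5 had 5771 CPM in members and 10977 CPM under the limit, Il15 had 275 and 566 CPM, Il15ra 247 and 443 CPM, and Pde4d, a cAMP phosphodiesterase, 990 and 2333 CPM. Plac8 stood lower there, at 208 CPM against 1095 CPM in members, as did Cd86, at 432 CPM against 768 CPM. The limit thus kept the cells with more transcripts of class II genes and of other genes, among them Plac8, Ms4a4c and Cybb. These 3 stood higher still in cDC1-like and cDC2-like cells. The shares and the differences between cKO and WT within mature DCs were also computed without the limit, but not the interactions with other DCs.

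**Figure D2:**
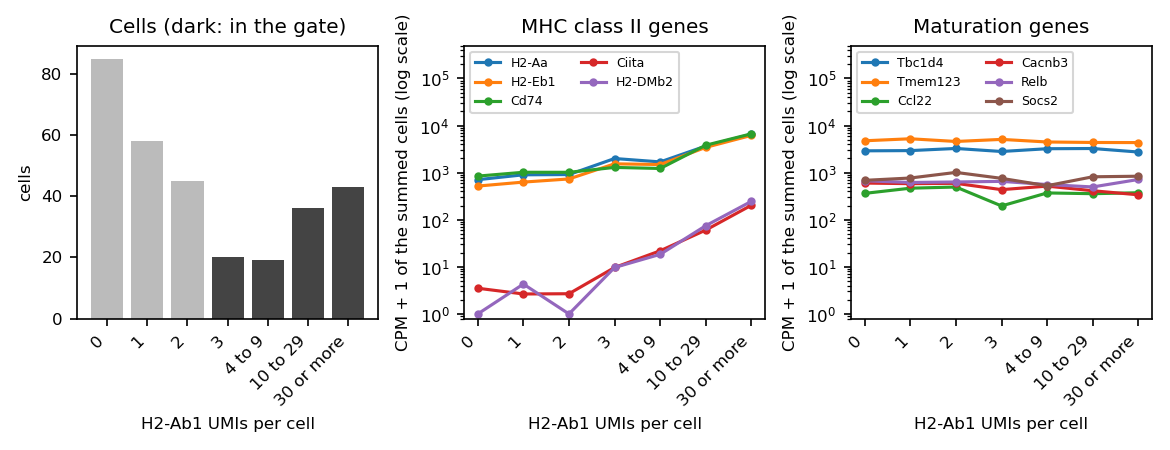
The 306 cells that meet every limit but that on H2-Ab1, binned by their H2-Ab1 UMIs: number of cells (left, dark bars for members), and levels of MHC class II genes (middle) and maturation genes (right) in the summed cells of each bin (CPM + 1, log axis). The class II genes climb over the bins (pooled Ciita is 105 CPM in members and 2.01 CPM under the limit), while Tbc1d4 stays level (2975 and 3019 CPM).

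Of 9 chemokines that could be counted, 3 were higher than in both other groups (Ccl22, Ccl5 and Cxcl16) and 2 were lower (Ccl3 and Ccl4). Ccl5 (chr11:83525778-83530518, minus strand), a chemokine that draws T cells and monocytes, had 7579, 4941, 4611 and 6651 CPM in mature DCs, against means of 146 CPM in cDC1-like and 164 CPM in cDC2-like cells. Cxcl16, the transmembrane ligand of Cxcr6, had 583, 639, 774 and 662 CPM, against 116 and 112 CPM. Ccl17 (chr8:94810453-94812036, plus strand), which shares the receptor Ccr4 with Ccl22 and lies on the same chromosome, differed between libraries, at 0, 582, 461 and 97.3 CPM. Only 23 members held a UMI of it, and 12 cells held 94.8% of its UMIs. None of the 10 cells of cKO library 1 held one, which with an exact 95% interval allows a share of up to 30.9%. The interferon-induced Cxcl10 had 104, 246, 197 and 574 CPM, below the means of 833 CPM in cDC1-like and 2322 CPM in cDC2-like cells. Ccl19, the ligand of Ccr7 itself, was at 0 UMIs in all 118 members and also under 10 UMIs in all kept cells.

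Among 12 cytokine genes, 6 were higher in mature DCs than in both other groups and none was lower. Il12b (chr11:44400063-44414033, plus strand), which encodes the subunit shared by IL-12 and IL-23, had 1408, 696, 859 and 1087 CPM. Its partners were rare: Il12a, the other subunit of IL-12, was found as 1 UMI in 1 of the 118 members, and Il23a in 2 members. Il15, which sustains CD8 T cells and natural killer (NK) cells, had 115, 319, 331 and 250 CPM, against means of 53.1 CPM in cDC1-like and 70.8 CPM in cDC2-like cells. Il15ra, which presents IL-15 to neighbouring cells, had 231, 272, 326 and 182 CPM, against 12.8 and 22.2 CPM. Il6 had 139, 86.8, 136 and 75.3 CPM and came from 24 members. Il1b had 468, 1132, 397 and 391 CPM, and in each library of mature DCs it lay under the mean of cDC2-like cells, 2010 CPM.

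Ligands that stimulate T cells and ligands that restrain them were both high in the pooled members. In single cells, 95 of the 118 members held UMIs of both Cd80 and Cd274, and 60 held both Cd80 and Pdcd1lg2. If the genes were unrelated, 91.9 and 62.6 cells would be expected. Of 11 costimulatory genes 5 were higher than in both other groups (Cd80, Cd83, Tnfsf4, Cd70 and Icosl) and 1 was lower (Cd48). Cd80, a ligand of Cd28 and Ctla4, had 716, 714, 620 and 427 CPM, against means of 49.4 CPM in cDC1-like and 99.6 CPM in cDC2-like cells. Its partner Cd86 was not set apart, at 1206, 775, 677 and 700 CPM against means of 716 and 1060 CPM. Cd83, a maturation antigen that holds class II molecules and Cd86 at the surface, had 1160, 1173, 1174 and 872 CPM, against 301 and 305 CPM. Tnfsf4, the ligand of Ox40, had a mean of 98.3 ± 27.3 CPM (SD, n = 4), against 1.58 and 2.73 CPM, and Cd70 a mean of 34.8 ± 7.5 CPM, against 0 and 0.0725 CPM. Of 16 inhibitory and regulatory genes, not all of them ligands, 6 were higher and 2 lower (Lgals9 and Havcr2). The 6 were Cd274, Pdcd1lg2, Fas, Cd200, Il4i1 and Socs2, and the last 3 were already counted among the mature DC markers. Cd274, which encodes PD-L1, had 866, 1309, 1484 and 1087 CPM in mature DCs, against means of 105 CPM in cDC1-like and 127 CPM in cDC2-like cells, and 113 of 118 members held a UMI. Pdcd1lg2, which encodes PD-L2, had 104, 310, 333 and 237 CPM, against 9.29 and 7.60 CPM. Cd200 averaged 411 ± 67 CPM and Il4i1, a secreted amino acid oxidase, 242 ± 98 CPM. Fas, the death receptor, averaged 89.3 ± 32.9 CPM, against 4.50 and 13.3 CPM. Ido1 was low, at 23.1, 15.8, 0 and 15.7 CPM.

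Genes of movement and shape went with Ccr7 and Fscn1. Of 14, 8 were higher than in both other groups, 1 was lower (Coro1a), and 2 of those 8 belong to the gate. Cacnb3 and Marcksl1, also among the 8, were already counted among the mature DC markers. Marcks, which links actin to the membrane, had 1755, 1711, 2010 and 1771 CPM, against means of 338 CPM in cDC1-like and 255 CPM in cDC2-like cells. Cytip, a regulator of integrin contacts between DCs and T cells, had 1818, 2180, 2307 and 1340 CPM, against 661 and 688 CPM. Anxa3, a calcium-dependent membrane-binding protein, averaged 801 ± 222 CPM, against 15.04 and 16.5 CPM. Receptors of tissue DCs and monocytes went the other way, with Ccr2 and Cx3cr1 lower than in both other groups. Flt3, the growth factor receptor of the DC lineage, was higher, at 485, 442, 364 and 422 CPM against means of 199 and 107 CPM.

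NF-kB is a family of dimers made from Rel, Rela, Relb, Nfkb1 and Nfkb2, and the Relb and Nfkb2 branch is known for DC maturation. Of 17 genes of this pathway 8 were higher than in both other groups and none was lower. Relb had 468, 771, 615 and 537 CPM in mature DCs, against means of 55.0 CPM in cDC1-like and 54.2 CPM in cDC2-like cells. Nfkb2 had 98.1, 110, 108 and 78.5 CPM, against 20.9 and 34.3 CPM. Rel had 2811, 1893, 2404 and 1814 CPM, against 501 and 662 CPM. Map3k14, the kinase upstream of Nfkb2 processing, averaged 495 ± 143 CPM (SD, n = 4), against 73.6 and 120 CPM. Traf1 averaged 663 ± 69 CPM and Birc2 678 ± 120 CPM, against at most 199 CPM in either other group. Rela and Nfkb1 were not set apart, at means of 35.8 and 1227 CPM in mature DCs, against 32.5 and 1273 CPM in cDC2-like cells.

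The letters GGG, any 2 bases and TTTCC in a row, a common form of the site bound by NF-kB dimers, were searched on both strands of the 250 bases before each RefSeq gene start. They occurred in 447 of 27025 genes with a window, or 1.65%. Of 13 genes of the NF-kB list with a window, 4 held them (Nfkb2, Rel, Nfkbia and Tnfaip3), and 0 of 12 leading genes, 0 of 6 chemokine genes and 0 of 6 costimulatory genes did. A match describes letters only and says nothing of binding. The windows of Rel and Nfkb2 are printed because both belong to the genes that were high in mature DCs and both hold the letters, here in capitals. They come from RefSeq on GRCm38.p6, run 5′ to 3′ along the gene's strand and lie at chr11:23770970-23771219 (minus strand, Rel) and chr19:46304487-46304736 (plus strand, Nfkb2).
Rel: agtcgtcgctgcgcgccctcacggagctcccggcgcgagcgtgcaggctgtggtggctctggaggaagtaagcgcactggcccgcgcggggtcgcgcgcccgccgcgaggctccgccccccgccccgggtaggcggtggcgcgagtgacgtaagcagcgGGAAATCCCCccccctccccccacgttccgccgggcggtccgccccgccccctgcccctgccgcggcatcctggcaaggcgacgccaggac
Nfkb2: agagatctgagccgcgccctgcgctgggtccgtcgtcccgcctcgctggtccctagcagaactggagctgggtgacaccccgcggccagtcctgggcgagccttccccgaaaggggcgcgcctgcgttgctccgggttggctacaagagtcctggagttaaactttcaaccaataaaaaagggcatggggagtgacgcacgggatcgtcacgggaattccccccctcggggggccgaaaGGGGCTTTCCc
In Rel the letters lie on the strand opposite to the gene and begin 91 bases before its start, and in Nfkb2 they lie on the gene's strand and begin 11 bases before its start.

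Of 16 DC transcription factors 5 were higher than in both other groups (Zbtb46, Nr4a3, Etv3, Stat3 and Relb) and 1 was lower (Zeb2). Nr4a3, a nuclear receptor needed for DC migration in mice, had 1472, 990, 1174 and 880 CPM, against means of 140 CPM in cDC1-like and 148 CPM in cDC2-like cells. Irf8, the factor of cDC1, had 733, 1045, 995 and 794 CPM, between the means of 1406 CPM in cDC1-like and 193 CPM in cDC2-like cells. Id2 averaged 1418 ± 177 CPM in mature DCs, near the 1257 CPM of cDC1-like cells and above the 286 CPM of cDC2-like cells. The survival gene Bcl2a1b had 2043, 2062, 2399 and 1699 CPM, against 215 and 166 CPM, and Bcl2 was the 1 of 11 survival and death genes that was lower, at a mean of 29.9 ± 9.5 CPM against 71.8 and 102 CPM. Bcl2a1b has near-identical copies, so its reads may be shared with them.

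For MHC class I the summed level of 13 genes was 24490, 29387, 26317 and 27746 CPM, against 15288 CPM in cDC1-like and 13497 CPM in cDC2-like cells. B2m, the light chain, made up most of each sum, at 15607, 19483, 16681 and 18095 CPM, against means of 8956 and 8118 CPM. Nlrc5, the coactivator of class I genes, was the 1 gene of this list that was higher by the 2-fold measure, and the chaperone Calr the 1 that was lower. Both counts, 1 of 13, lie under the 9.29% and 14% of all genes and set this list apart in no way. Nlrc5 had 214, 384, 533 and 461 CPM, against means of 166 and 188 CPM. For MHC class II, 0 of 14 genes were higher and 3 were lower (H2-DMa, H2-DMb1 and March1), although the rule asks for H2-Ab1. March1, the ubiquitin ligase that sends class II molecules and Cd86 to degradation, had 40.4, 3.94, 12.8 and 48.6 CPM, against means of 307 CPM in cDC1-like and 271 CPM in cDC2-like cells.

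Some lists held more lower genes than the 14% of all genes. Of 12 genes of the unfolded protein response 6 were lower than in both other groups and none was higher, with the chaperone Hspa5 at 306, 394, 192 and 334 CPM against means of 934 and 864 CPM. Of 16 immediate early and stress genes 5 were lower, among them Fos, at 393, 759, 764 and 471 CPM against 2534 and 2904 CPM. Of 16 type I interferon response genes 4 were lower (Ifit2, Ifit3, Irf7 and Stat2). Uptake and pattern recognition had 2 of 13 lower, Tlr7 and Fcer1g. Glycolysis had 3 of 15 lower (Hk2, Pgam1 and Ldha), oxidative phosphorylation 2 of 14, cholesterol and lipid handling 1 of 8, and the interferon gamma response 1 of 11, none of them higher. No gene of 14 for proliferation met the measure in either direction, and Mki67 was found in 13 members. The counts for uptake, oxidative phosphorylation, lipid handling and the interferon gamma response lie near or under that 14% and set those lists apart in no way.

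Markers of other cell types in the members were as follows. The rule itself limits the Cd3 genes, Cd79a and the C1q genes. These belong to the T cell, B cell and macrophage lists, so the sums of those lists are partly fixed by it. The 6 T cell genes summed to 17.3 and 19.7 CPM in cKO libraries and 5.13 and 17.3 CPM in WT libraries, and the 5 B cell genes to 23.1 and 49.3 CPM and to 15.4 and 58.1 CPM. The 4 NK genes summed to 11.5 and 21.7 CPM in cKO libraries and 5.13 and 73.7 CPM in WT libraries. Macrophage genes summed to 266 and 408 CPM (cKO) and 228 and 501 CPM (WT), and monocyte genes to 1478 and 1743 CPM (cKO) and 451 and 1889 CPM (WT), mostly Plac8. In cDC1-like and cDC2-like cells the macrophage genes summed to 343 and 352 CPM, and the monocyte genes to 5427 and 5600 CPM. The 5 plasmacytoid DC genes summed to 566 and 1067 CPM (cKO) and 628 and 711 CPM (WT), mostly Tcf4 and Bst2. Their sums were 3067 CPM in cDC1-like and 827 CPM in cDC2-like cells. S100a8, Cxcr2, Col3a1, Krt8 and Krt18 were at 0. The fibroblast or tumour genes summed to 0 and 1.97 CPM in cKO libraries and 2.56 and 6.28 CPM in WT libraries, while the labels give a colorectal tumour cell line as the cell type. Ptprc, which encodes CD45, had 1160, 787, 897 and 1103 CPM. Single cells carried parts of these sums. In WT library 2, 1 cell held 890 of the 953 UMIs of Gzmc found in all members, and in cKO library 2, 1 cell held 26 of the 27 UMIs of Siglech. A doublet caller (Scrublet) marked 0 cells at its automatic threshold, so its scores were used with a limit of 0.2, and 3 members scored above 0.2. Whether doublets remain among the members was not settled. Of the barcodes, 289 occurred in more than 1 library, and 2 of these belonged to members.

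The members were not uniform. Ccl5 was found in 89.8% of them, from 0 to 867 UMIs per cell, and the 12 cells with the most held 51.6% of its UMIs. Il12b was found in 62 of 118, or 52.5%, while 0.415% of T cells (cells with at least 3 Cd3 UMIs and none of H2-Ab1), which should lack it, held a UMI, at median depths of 13222 UMIs per cell in mature DCs and 6134 in T cells. With each cell thinned to 3000 UMIs, which left 113 members, the shares were 37.2% in mature DCs and 0.144% in T cells. The 12 cells richest in Il12b held 68.8% of its UMIs, and in cKO library 1 a single cell held 205 of 244, so the 1408 CPM there rest on that cell. Across the 118 members the UMIs of Il12b rank-correlated with those of Irf8 (Spearman rho 0.54, and 0.48 after thinning). Within libraries rho was 0.63 and 0.63 in cKO and 0.68 and 0.37 in WT. For Ccl22 and Ccl17 rho was 0.41, and 0.28 after thinning, and for Ccl17 and Pdcd1lg2 it was 0.43 and 0.24. Ccl17 was found in only 23 members and in none of cKO library 1. Within the other libraries rho of Ccl22 and Ccl17 was 0.22 in cKO library 2 and 0.76 and 0.33 in WT. For Ccl5 and Irf8 rho was 0.39 before and after thinning. These pairs are named because their rho before thinning was the largest among the pairs computed. Depth per cell is shared by both genes of a pair, and no p is given.

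**Figure D3:**
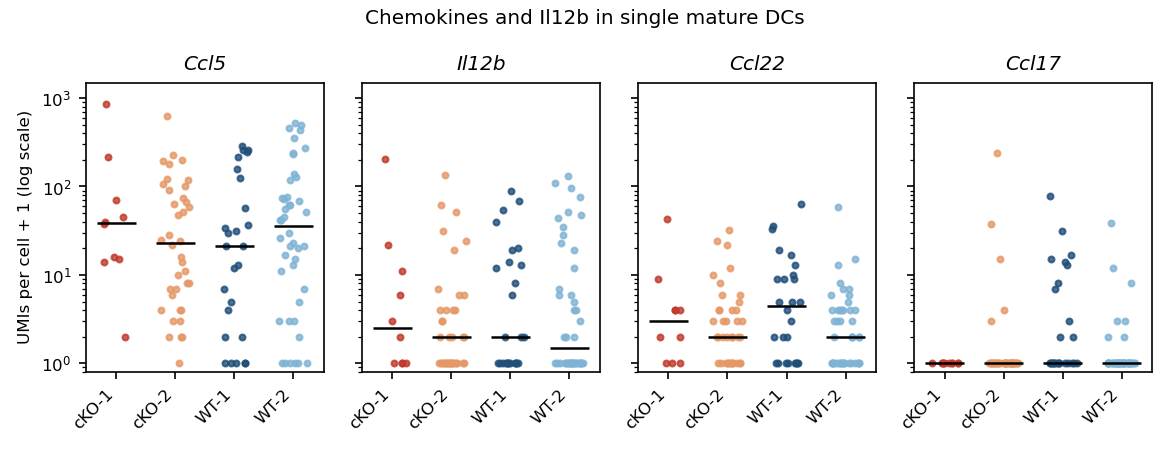
UMIs per cell (plus 1, log axis) of Ccl5, Il12b, Ccl22 and Ccl17 in each of the 118 mature DCs, 1 point a cell, by library with cKO left of WT and lines at medians. Il12b reaches 205 UMIs in 1 cell of cKO library 1 and was found in 62 of the 118 cells, while no cell of that library held Ccl17.

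The genotype comparison asks whether mature DCs differ between tumours of Trim25 cKO and WT mice. In their share of kept cells they did not separate. They made up 0.122% (exact 95% interval 0.0585 to 0.224) and 0.405% (0.287 to 0.555) in cKO libraries, against 0.254% (0.166 to 0.373) and 0.364% (0.265 to 0.488) in WT libraries. The cKO libraries lay on both sides of the WT libraries. The means were 0.2633 ± 0.2001% in cKO and 0.3091 ± 0.0774% in WT (SD, n = 2 each), a log2 ratio of -0.45 with an exact two-sided permutation p of 1, where 2 libraries against 2 cannot go below 0.33. Without cKO library 1 the log2 ratio was 0.41, so 1 library set its sign. Among all cells of the 3 DC groups the shares were 4.57 and 8.33% in cKO, against 7.26 and 8.32% in WT. Intervals cover counting error only.

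**Figure D4:**
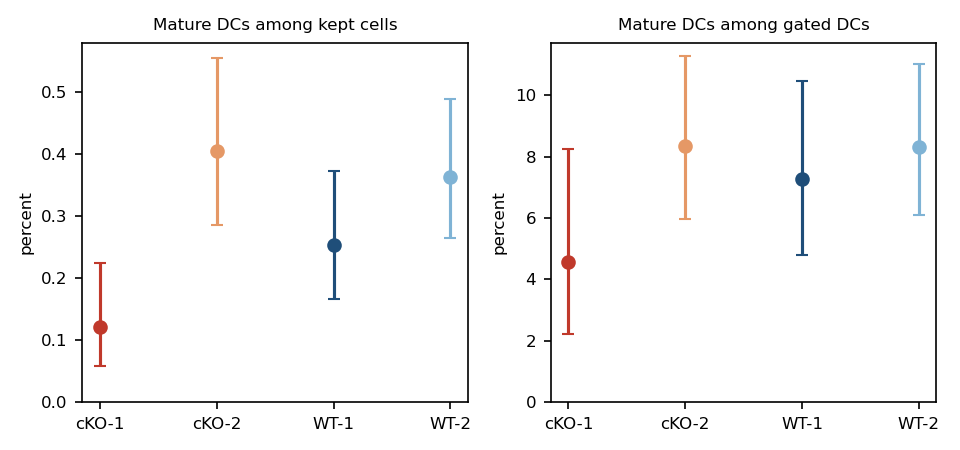
Share of mature DCs in each library (percent), among all kept cells (left) and among the cells of the 3 DC groups (right), cKO left of WT, with exact 95% intervals for counting error. The cKO libraries, at 0.122 and 0.405% of kept cells, enclose both WT libraries, at 0.254 and 0.364%.

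Trim25 itself (chr11:88999376-89020293, plus strand) was found in mature DCs of every library, at 92.4 and 120 CPM in cKO and 128 and 166 CPM in WT. The log2 fold change was -0.45 ± 0.36 (SE), with an adjusted p of 1 in edgeR's quasi-likelihood test on summed counts. Both cKO libraries lay below both WT libraries, as did 14.5% of the 5467 genes compared this way. A count at the 3′ end need not fall within a deleted part, so these levels do not check the labels. Vsir (chr10:60346851-60372684, plus strand), which encodes the checkpoint protein VISTA named in the series title, had 11.5 and 31.5 CPM in cKO and 17.9 and 32.95 CPM in WT. Its log2 fold change was -0.11 ± 0.67 with an adjusted p of 1.

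Across the 5468 genes tested, none passed an adjusted p of 0.05 in edgeR (0% called), and DESeq2 called 0 as well. At an unadjusted p under 0.05 edgeR had 167 genes, or 3.05%, and DESeq2 had 71. The genes of lowest p in each direction are named as values that did not pass. Asph, a hydroxylase of the endoplasmic reticulum, had 10 and 31 UMIs in cKO and 1 and 3 UMIs in WT, a log2 fold change of 3.85 ± 0.67 with an unadjusted p of 0.00033 in edgeR. Il23r, a chain of the IL-23 receptor, had 18 and 26 UMIs in cKO against 6 and 10 UMIs in WT, and Mef2c had 45 and 37 against 6 and 21. Tnfrsf9, the costimulatory receptor 4-1BB, had 65 and 107 UMIs in cKO against 45 and 66 in WT, with a log2 fold change of 1.38 ± 0.37. Rasgrp3, Gm47957, Aph1c and Glis3 completed the 8 of positive sign. In the other direction Gatm, an enzyme of creatine synthesis, had 7 and 9 UMIs in cKO against 64 and 52 UMIs in WT, a log2 fold change of -2.23. Ccser1, Snx25, Fgf13, Ikzf2, Pde7a, Armc8 and Glul stood with it, at -1.48 to -3.26. Every one of these 16 genes had an adjusted p of 1. With the limit on H2-Ab1 left out, all 16 kept their sign with smaller values, among them Asph at 1.48, Il23r at 0.40, Snx25 at -0.32, Fgf13 at -0.55 and Ccser1 at -0.33.

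No gene of any list was called, and the median log2 fold change of all genes was 0.00. Ccr7 and Fscn1 were not tested, since they chose the cells. Among the other 8 mature DC markers the median log2 fold change was -0.19, with 2 above 0, and it was 0.01 without cKO library 1 and 0.12 without WT library 1. Ccl22 and Cd274 each had overlapping libraries, as their levels above show, and Cd80 had both cKO libraries above both WT libraries, which 15.8% of all genes did. For the NF-kB list the median was 0.15, with 13 of 17 above 0 (-0.01 without WT library 2), and for costimulation it was 0.23, with 6 of 10 above 0. The inhibitory and regulatory list had a median of -0.26, with 1 of 14 above 0, and 0.04 without cKO library 1. Glycolysis and hypoxia had a median of 0.35, and -0.01 without WT library 1.

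The type I interferon response stood farthest from 0 among the lists with at least 10 tested genes, at a median of -0.56 with 1 of 15 above 0. The summed level of its genes was 1276 and 1741 CPM in cKO libraries, against 1312 and 3314 CPM in WT libraries, so 1 WT library stood above the other 3. Ifit2, an interferon-induced RNA-binding protein, had 40.4 and 67.0 CPM in cKO against 51.3 and 326 CPM in WT. Not every gene of the list went this way. Rsad2 had 51.95 and 106.5 CPM in cKO against 185 and 190 CPM in WT, and log2 fold changes of -1.89 to -0.82 when a library was left out. Rsad2 and Usp18 were the 2 of 15 with both cKO libraries below both WT libraries, as for 14.5% of all genes compared. Without WT library 2 the list's median was 0.27, and without another library it lay between -1.09 and -0.37. The sign of this list therefore rested on WT library 2, and what set that library apart was not tested. With the limit on H2-Ab1 left out the median was -0.61.

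**Figure D5:**
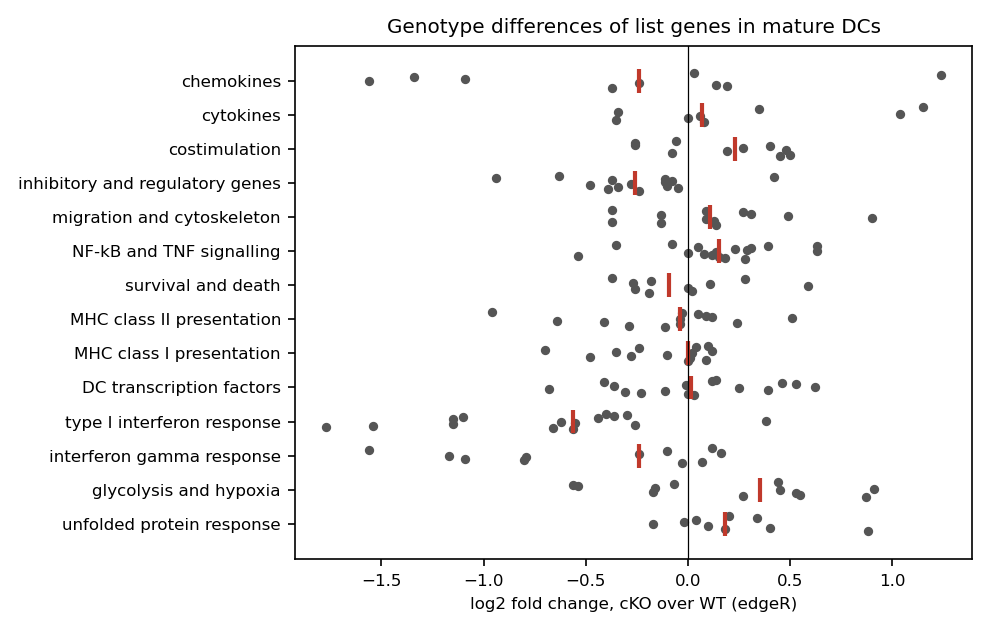
Log2 fold change of cKO over WT in mature DCs for the genes of each list that passed the filter on low counts (1 point a gene, bars for medians). The list medians lie around 0, with the type I interferon response at -0.56, and no gene was called.

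Whether the genotype difference in mature DCs was unlike that in the other DCs was tested by an interaction in edgeR, with libraries as the replicates. Against cDC2-like cells 0 of 10827 genes were called (0%), with 644 at an unadjusted p under 0.05. Against cDC1-like cells 1 of 10827 was called (0.00924%), Il12b, at a log2 difference of 4.11 ± 0.41 (SE) and an adjusted p of 0.00121, with 696 at an unadjusted p under 0.05. In mature DCs Il12b had 1408 and 696 CPM in cKO against 859 and 1087 CPM in WT, and those libraries overlapped. Its log2 fold change there was 0.08, and -0.53 with an unadjusted p of 0.0149 in edgeR without the limit on H2-Ab1. In cDC1-like cells it had 1.47 and 0.689 CPM in cKO against 15.6 and 22.4 CPM in WT. The cDC1-like libraries did not overlap, and few cells held their UMIs. These were 3 and 3 in cKO against 39 and 88 in WT, and 1 cell held 38 of the 39 and 1 cell 87 of the 88. With cells scoring above 0.2 in Scrublet left out, one of these 2 cells among them, the log2 difference was 3.25 with an adjusted p of 0.691 in edgeR.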

How the data were processed

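The deposited files hold raw UMI counts per gene and cell barcode, which the authors made with Cell Ranger and STAR on mm10, per the submitters' processing notes, which give no versions. No normalization was applied to them. Barcodes numbered 8533 and 9654 in cKO libraries and 10385 and 12318 in WT libraries; cells needed 300 genes or more, 500 UMIs or more and a mitochondrial share of no more than 15% (this left 8205 and 9387, against 10222 and 12092). Counts of the members were summed per library, and CPM was computed over all genes. Differences between cKO and WT were tested with edgeR 4.0.16 (quasi-likelihood, TMM, filterByExpr, Benjamini-Hochberg), with limma 3.58.1 and R 4.3.3 beneath it, and DESeq2 1.42.0 as an alternative. Python 3.11.15, numpy 2.4.6, scipy 1.17.1, pandas 2.3.3, scanpy 1.11.5 and matplotlib 3.10.9 did the rest. A chi-square per degree of freedom of at least 44.0 between libraries showed that none repeats another. The labels do not say that same-numbered libraries belong together. Their deviations from their group means correlated at 0.087 over the 5468 genes, 1 value for both pairs. Counting noise in sums of so few cells lowers such a value, so it does not decide whether the libraries were paired or shared a batch.

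The members and gene lists were chosen with earlier results of these data known. Of 325 genes on the lists, Clec7a and Mx1 were not analysed here. Genes named with values are those of the gate and its markers, the 15 leading genes, members of the lists, the 8 genes of lowest p in each direction, and Trim25 and Vsir; up to 6 members of a list were taken by highest mean CPM, and further list members were picked after their values were seen, as were H2-DMb2, Pde4d, Plac8, Gzmc and Siglech. Checked on simulated counts for the 5468 genes tested in mature DCs, the test recovered 49% of changes of 2 on the log2 scale and 7% of changes of 1, with 9 false calls among 65.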

Additional observations from a re-analysis of the deposited data

Results flagged for a closer look

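One result stood out by a test of the difference itself: the cKO against WT difference of Il12b was 4.11 on the log2 scale higher in mature DCs than in cDC1-like cells (edgeR interaction, adjusted p 0.00121). Il12b had 1408 and 696 CPM in mature DCs of cKO libraries against 859 and 1087 CPM in those of WT libraries, and 1.47 and 0.689 CPM in cDC1-like cells of cKO libraries against 15.6 and 22.4 CPM in those of WT libraries. Leaving out a library gave 3.99 to 4.21, with adjusted p of 0.0108 to 0.0349. In each WT library, 1 cDC1-like cell held nearly all of the UMIs (38 of 39 and 87 of 88), and in cKO library 1 a single mature DC held 205 of 244. Leaving out cells scoring above 0.2 in Scrublet gave 3.25 with an adjusted p of 0.691 in edgeR. Of these single cells it removed only the cDC1-like cell of WT library 1. The part of the others was not tested, and leaving out 1 WT library keeps the single cell of the other.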

How the results depend on the processing

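The count of called genes between cKO and WT, 0 in edgeR, was 31 with no filter on low counts and 0 to 21 when a library was left out (19 without WT library 1, 21 without WT library 2, 0 without either cKO library). It stayed at 0 with size factors of the DESeq2 type, with stricter and looser limits on Ccr7 and Fscn1, without cells scoring above 0.2 in Scrublet, without the cells of highest UMI count, and in DESeq2. With a replicate block, pairing libraries by their number, it was 0, with 186 genes at an unadjusted p under 0.05. The gate without the H2-Ab1 limit, an alternative chosen after seeing the data like those that leave out Siglech-bearing cells, gave 0 of 7464 genes, and 1 to 96 when a library was left out (27 and 96 without cKO libraries 1 and 2, 1 and 7 without WT libraries 1 and 2). The log2 ratio of shares was 0.41 without cKO library 1 among kept cells (range -1.32 to 0.41) and 0.10 among cells of the DC groups (main value -0.33, range -0.77 to 0.10). Interaction calls against cDC1-like cells numbered 53 with no filter, 0 without cells of high Scrublet score and 1 to 6 without a library; against cDC2-like cells they numbered 57 with no filter and 0 to 3 without a library. Among 211 values of named genes, 200 kept direction and call, 9 passed and 1 no longer passed, and Snx25 turned to 0.38 with the looser gate. The cause was not tested. Depth limits the rest: 10 cells in cKO library 1 allow no firm statement on rare genes.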
